A study of Mus musculus with 6 samples.

Results

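Polycomb repressive complex 2 (PRC2) was examined through 10 of its genes, matched exactly by gene symbol among the 55353 genes of the files. The choice was made by name from the biology of the complex, with earlier results of these data known. The 10 genes were the catalytic subunits Ezh1 and Ezh2, the core subunits Eed, Suz12 and Rbbp4, and the accessory subunits Jarid2, Mtf2, Phf1, Phf19 and Aebp2. The measurements came from whole testes of mice at postnatal day 14. The mutants were 3 Rnu11 cKO animals, which carry a conditional knockout of the U11 small nuclear RNA gene, and the controls were 3 animals whose genotype the labels give as control. No source used here gives the promoter that drives the deletion or the testis cells that lost Rnu11. Eed was included as a reported minor intron gene, and its RNA and that of its partners were compared between the groups. In whole testis a change within cells cannot be told apart from a change in cell makeup.

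PRC2 places the trimethyl mark on lysine 27 of histone H3, and genes that carry the mark are kept silent. Ezh2 is the main methyltransferase of dividing cells, and Ezh1 is a weaker enzyme also present in cells that have stopped dividing. Eed reads the finished mark and stimulates the enzyme, Suz12 is the scaffold, and Rbbp4 binds histones. The Polycomb-like proteins Mtf2, Phf1 and Phf19 define one form of the complex, and Jarid2 with Aebp2 define another. In mouse male germ cells PRC2 is known to be needed for spermatogenesis and to hold somatic and lineage genes silent. U11 recognises the 5′ splice site of minor introns, a rare class removed by the minor spliceosome.

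The sequences shown first are the 5′ ends of Eed introns that annotated Eed transcripts run into, because a minor intron would be recognised there. Each gives the last 10 exon bases in lower case and the first 8 intron bases in capitals, on the minus strand of chromosome 7, read from GENCODE M21 transcripts (GRCm38). Introns are numbered along the full-length coding isoform Eed-201.
Intron 2, chr7:89972324-89976896: cagcctcaagGTATGTGC
Intron 3, chr7:89971606-89972230: aagcaacagaGTGAGTGT
Intron 8, chr7:89962362-89964728: aaactaacagGTGACAGG
Intron 10, chr7:89955605-89956254: ctggcaaaagGTAGCACA
Intron 10 as spliced in Eed-205, chr7:89955605-89956343: attaaacctaGTGAGTCT
The minor splice site was searched as ATATCCTT or GTATCCTT at the intron's first base on the transcribed strand, with at most 1 mismatch in the last 6 bases. These 5 ends differed from the closer of the motifs at 4 or 5 of 8 bases, and none was a match. Only 6 of the 15 annotated Eed introns could be read in this way, so the position of the reported minor intron was not found. Over the 10 genes 49 of 217 introns could be read and 0 matched, whereas 352 of 39960 readable introns of all protein-coding genes did (0.881%). No match says only that these letters are not in the windows read.

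Each gene and isoform had a value in TPM, a relative abundance per library, measured in rRNA-depleted total RNA and scaled by length, so that levels of different genes can be compared. How many reads lie behind a TPM value is not known. Between 30113 and 34510 genes per library were above 0, Rn7s2 took 26.9% to 30.5% of the TPM and nuclear protein-coding genes took 25.3% to 31.0%. Rnu11 itself had 196, 393 and 203 TPM in the mutants, against 614, 576 and 550.3 TPM in the controls. The groups did not overlap, and Rnu11 differed by −1.21 on the log2(TPM + 1) scale (adjusted p = 0.294, limma). Mutant replicate 2 had the highest Rnu11 of the mutants, and without it the difference was −1.53 (adjusted p = 0.0389, limma); over all alternatives the adjusted p ran from 0.0389 to 0.606. Summed markers of Sertoli cells, the somatic supporting cells, ranged from 2397 to 3221 TPM in mutants and from 1739 to 2017 TPM in controls. Markers of leptotene and zygotene spermatocytes, germ cells early in meiosis, summed to 277 to 349.6 TPM in mutants and 402 to 487 TPM in controls. In whole testis, fewer cells of a type and less RNA per cell cannot be told apart.

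None of the 10 PRC2 genes changed at the threshold. All 10 averaged at least 1 TPM over the 6 libraries and were tested, and 0 were called at an adjusted p under 0.05, beside 0.0278% of the 17959 genes tested (5 genes). At an unadjusted p under 0.05 there was 1, Phf1. By their means 5 were higher and 5 lower in the mutants. The groups did not overlap for 2 genes, Phf1 and Mtf2, both lower, and for 0 genes in the other direction. Of all genes tested, 5.77% were lower and 14.5% higher without overlap. The median log2 difference was 0.02 over the 10 genes and 0.09 over all genes tested, and 8 of the 10 lay below the median of all genes.

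**Figure D1:**
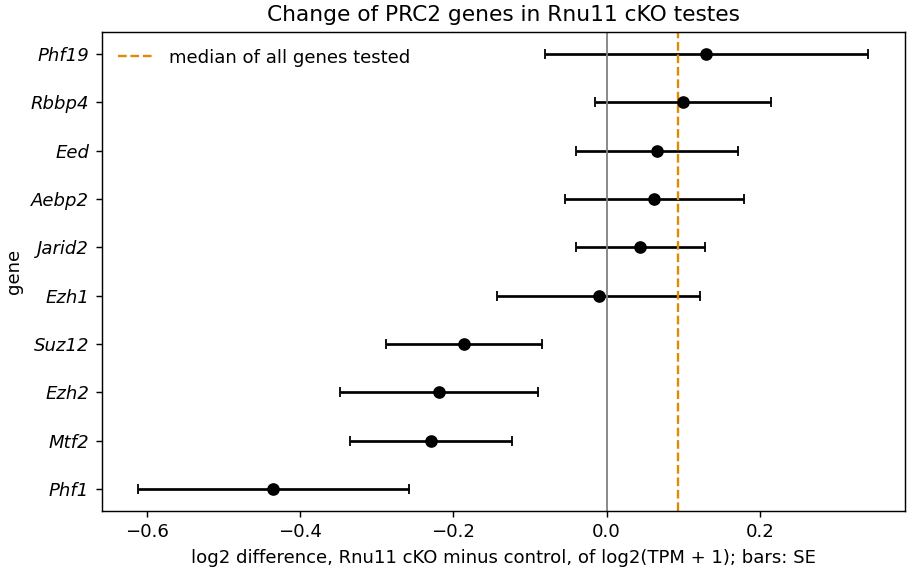
Log2 difference of each PRC2 gene, Rnu11 cKO minus control, on the log2(TPM + 1) scale; bars are standard errors from limma, the solid line is no difference and the dashed line is the median of all genes tested (0.09). Estimates run from −0.44 for Phf1 to 0.13 for Phf19, and 0 of 10 passed the threshold.

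The split of directions depended on the scaling of the libraries. With median-ratio scaling 1 gene was higher and 9 were lower, and with TPM rescaled over nuclear protein-coding genes the split was also 1 to 9. These scalings moved the median of all genes by −0.09 and −0.12, and the medians of the 10 genes became −0.09 and −0.12 while those of all genes were 0.002 and −0.02. Aebp2, Eed, Jarid2 and Rbbp4 were the genes whose sign turned. Under either scaling 3 genes were lower without overlap, beside 10.9% and 13.0% of all genes tested, and 0 were called.

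In whole-gene TPM the catalytic subunits stood at like levels, but their coding isoforms did not. Coding isoforms of Ezh1 averaged 22.9 ± 2.62 TPM in mutants and 21.9 ± 1.44 TPM in controls. Those of Ezh2 averaged 12.7 ± 0.288 TPM in mutants and 13.0 ± 0.884 TPM in controls. Ezh2, on chromosome 6 from 47530139 to 47595341 (minus strand, GRCm38), had 38.0, 28.8 and 34.5 TPM in the mutants, against 37.0, 37.1 and 44.0 TPM in the controls. The groups overlapped only through mutant replicate 1. Ezh2 averaged 33.8 ± 4.62 TPM in mutants and 39.4 ± 4.03 TPM in controls (SD, n = 3 each). Its log2 difference was −0.22 ± 0.13 (SE), with a 95% interval of −0.53 to 0.09 (adjusted p = 0.403, limma).

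Ezh1, on chromosome 11 from 101191115 to 101226463 (minus strand), had 40.4, 38.7 and 30.3 TPM in the mutants, against 34.0, 35.4 and 40.2 TPM in the controls. Mutant replicate 3 was the lowest of the 6 libraries and mutant replicate 1 the highest, so the groups overlapped throughout. Ezh1 averaged 36.5 ± 5.40 TPM in mutants and 36.6 ± 3.25 TPM in controls. The log2 difference of −0.01 had an interval of −0.32 to 0.30 (adjusted p = 0.98, limma).

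The ratio of Ezh1 to Ezh2 whole-gene TPM compares all RNA assigned to each gene within a library, coding or not. It was 1.06, 1.34 and 0.878 in the mutants, against 0.919, 0.955 and 0.914 in the controls. Mutant replicates 1 and 2 lay above 1, and mutant replicate 3 lay below all controls. On the log2 scale the ratio averaged 0.11 ± 0.31 in mutants and −0.11 ± 0.03 in controls, a difference of 0.21 (exact two-sided permutation test, p = 0.4, where 3 against 3 cannot go below 0.1). Leaving out mutant replicate 2 made it 0.06, and leaving out mutant replicate 3 made it 0.36. With coding isoforms alone the difference in the log2 ratio was 0.09 (exact two-sided permutation test, p = 0.5). Coding Ezh1 TPM was then above coding Ezh2 TPM in every library. Coding isoforms held 62.9% of Ezh1 TPM in mutants and 59.9% in controls. For Ezh2 they held 38.1% in mutants and 33.1% in controls.

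The scaffold gene Suz12, on chromosome 11 from 79993106 to 80034123 (plus strand), had 25.6, 24.4 and 22.1 TPM in the mutants, against 30.1, 25.5 and 26.8 TPM in the controls. Mutant replicate 1 stood just above control replicate 2, and every other mutant lay below every control. Suz12 averaged 24.0 ± 1.79 TPM in mutants and 27.5 ± 2.35 TPM in controls, a log2 difference of −0.19 ± 0.10 (SE; 95% interval −0.43 to 0.05; adjusted p = 0.372, limma).

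Rbbp4, the histone-binding subunit that PRC2 shares with other chromatin complexes, lies on chromosome 4 from 129307100 to 129335370 (minus strand) and had the most RNA of the 10 genes. It had 100.3, 94.7 and 82.3 TPM in the mutants, against 80.3, 95.3 and 82.8 TPM in the controls. The groups overlapped. Rbbp4 averaged 92.5 ± 9.21 TPM in mutants and 86.1 ± 8.03 TPM in controls. It differed by 0.10 on the log2 scale, with an interval of −0.17 to 0.37 (adjusted p = 0.655, limma), and its sign turned under the other scalings.

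**Figure D2:**
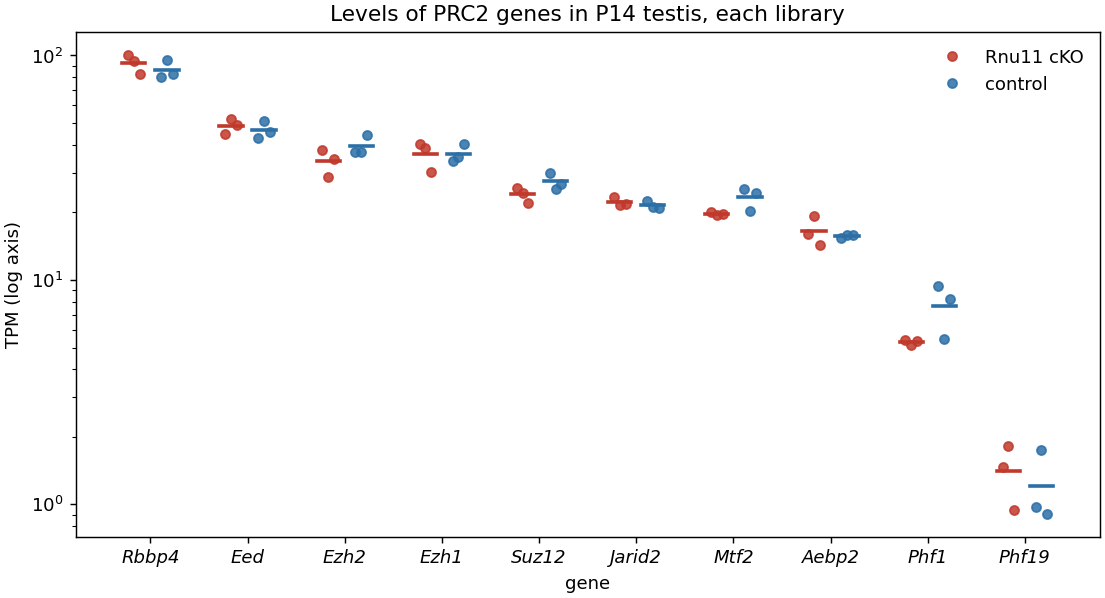
TPM of each PRC2 gene in every library on a log axis, Rnu11 cKO libraries in red left of controls in blue, with the mean of 3 libraries as a bar. The genes are ordered by mean level from Rbbp4 (92.5 and 86.1 TPM) down to Phf19 (1.41 and 1.21 TPM in mutants and controls), and the groups are clear of each other only for Mtf2 and Phf1.

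Eed, on chromosome 7 from 89954654 to 89980983 (minus strand), was second in level at 44.7, 52.4 and 48.9 TPM in the mutants, against 42.8, 51.1 and 45.4 TPM in the controls. The groups overlapped, with controls at both the bottom and near the top of the range. The means were 48.6 ± 3.86 TPM in mutants and 46.4 ± 4.25 TPM in controls. Eed differed by 0.07 ± 0.11 (SE) on the log2 scale, with an interval of −0.19 to 0.32 (adjusted p = 0.761, limma), and −0.04 or −0.07 under the other scalings. The total RNA assigned to this reported minor intron gene therefore did not differ detectably between the groups.

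Most of the Eed TPM was not assigned to the full-length coding isoform. TPM is per length, and Eed-201 has 2067 bases while the retained-intron isoforms have 454 to 774. The tool that made this assignment is not known here. Whether reads from RNA not yet spliced were assigned to these isoforms was not tested. GENCODE M21 annotates 10 Eed isoforms, of which Eed-201 has all 12 exons and codes for the whole protein. Eed-202 ends 153 bases into intron 2 and Eed-203 ends 101 bases into intron 3. Eed-207 ends 135 bases into intron 8, and Eed-206 starts with 466 bases of intron 8. Eed-204 starts with 525 bases of intron 9, and Eed-208 ends 281 bases into intron 10. These 6 are annotated as retained-intron transcripts. The shorter Eed-205, annotated as coding, runs from exon 8 to exon 12 with an earlier 5′ splice site in exon 10. Isoforms outside GENCODE M21 held a further 10.8, 10.3 and 11.3 TPM in the mutants, against 11.4, 15.7 and 12.2 TPM in the controls. The structure of these is not known here, and their groups did not overlap, with mutants lower.

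**Figure D3:**
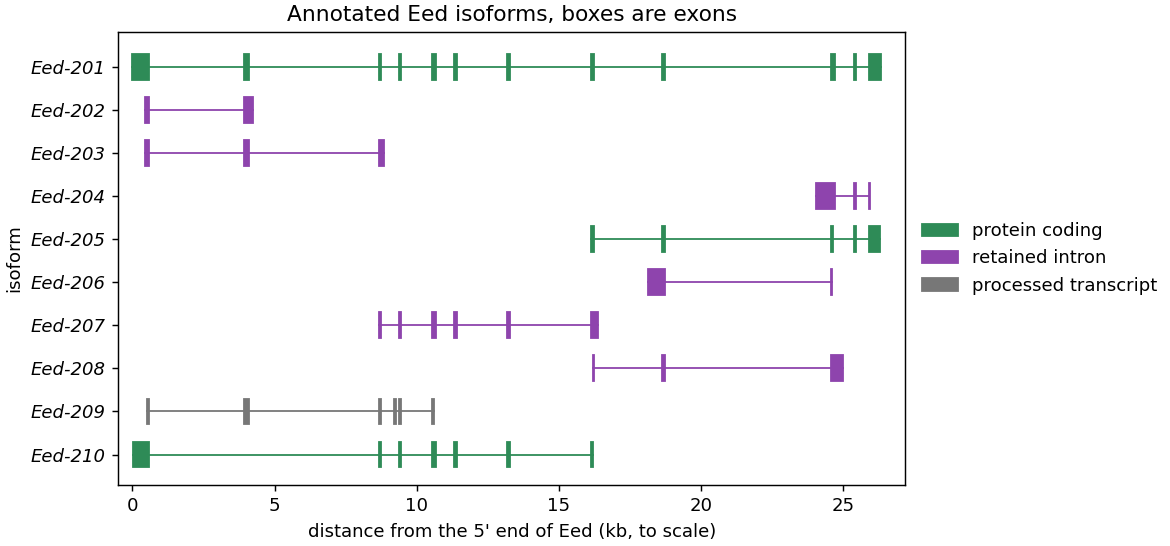
Exons of the 10 annotated Eed isoforms as boxes, drawn to scale by distance in kb from the 5′ end of the gene, with coding isoforms in green, retained-intron isoforms in purple and a processed transcript in grey. Eed-202 and Eed-203 stop within introns 2 and 3, and only Eed-201 spans all 12 exons.

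Eed-203 was the most abundant annotated Eed isoform. It had 8.54, 17.2 and 13.7 TPM in the mutants, against 6.41, 9.19 and 10.6 TPM in the controls. Mutant replicates 2 and 3 lay above every control, and mutant replicate 1 lay within the controls' range. The log2 difference was 0.51 ± 0.27 (SE; adjusted p = 0.531, limma). The 3′ end of this transcript, chr7:89972130-89972240 on the minus strand, is shown because it carries the intron bases that distinguish it. It gives the last 10 bases of exon 3 and all 101 intron bases, with the first 8 intron bases in capitals.
Eed-203 end: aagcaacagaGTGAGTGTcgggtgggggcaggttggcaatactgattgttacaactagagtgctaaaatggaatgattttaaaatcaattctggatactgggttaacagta

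Eed-202, which stops in intron 2, had 6.05, 5.33 and 6.40 TPM in the mutants, against 4.92, 4.06 and 4.95 TPM in the controls. Every mutant lay above every control. The log2 difference was 0.30 ± 0.12 (SE; adjusted p = 0.488, limma). The separation was lost under either of the other scalings, where 0 isoforms of the 10 genes were higher without overlap. The full-length coding Eed-201 had 0.966, 0.187 and 1.02 TPM in the mutants, against 2.73, 0.792 and 3.39 TPM in the controls. Control replicate 2 lay among the mutants, and the others did not overlap. Its log2 difference was −0.88 ± 0.38 (SE; adjusted p = 0.493, limma). It was −1.27 when control replicate 2 was left out and −0.62 when control replicate 3 was.

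The groups overlapped for the other Eed isoforms tested. The coding Eed-205 had 4.58, 5.57 and 2.14 TPM in the mutants, against 2.18, 3.77 and 2.57 TPM in the controls (log2 difference 0.36, adjusted p = 0.664, limma). Its lowest library was mutant replicate 3. Eed-204, Eed-206, Eed-207 and Eed-208 differed by −0.20 to −0.001 on the log2 scale. Eed-209 was at most 0.289 TPM in any library and was not tested.

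**Figure D4:**
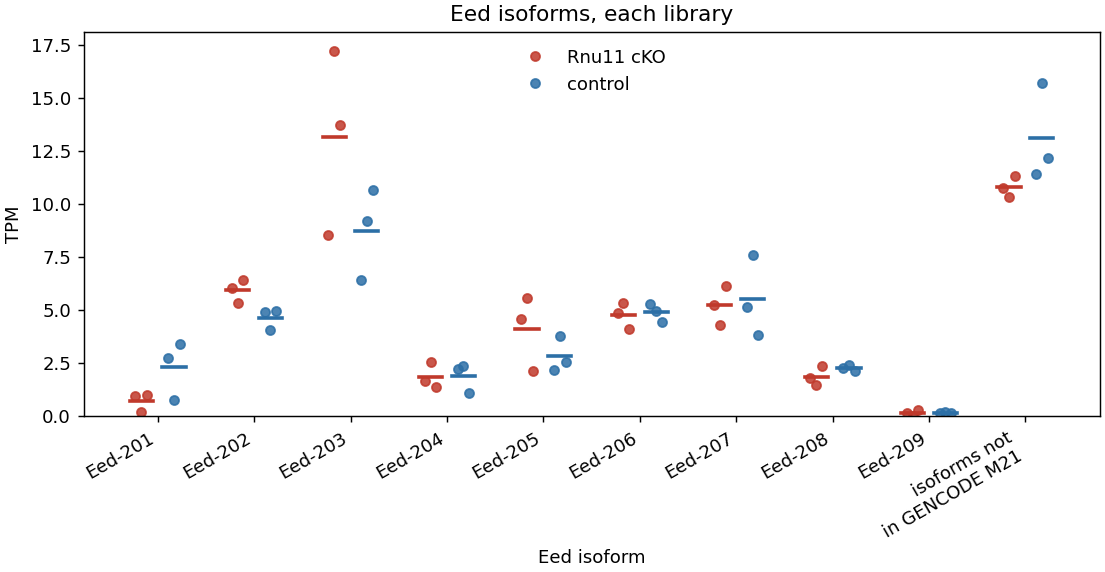
TPM of each Eed isoform with a group mean of at least 0.1 TPM, and of the isoforms outside GENCODE M21 together, for Rnu11 cKO libraries (red, left) and controls (blue, right), with group means as bars. Eed-203 reaches 17.2 TPM in a mutant while Eed-201 stays at or under 3.39 TPM in every library.

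The share of Eed TPM on retained-intron isoforms was computed after the isoform values had been seen. It was 63.1%, 69.3% and 69.7% in the mutants, against 61.3%, 59.9% and 59.7% in the controls. Every mutant was above every control, by a mean of 7.07 percentage points (67.4% ± 3.70 in mutants and 60.3% ± 0.90 in controls, SD, n = 3 each; exact permutation test, p = 0.1, the smallest the design allows). The sum counts isoforms outside GENCODE M21 only in the denominator. Over GENCODE M21 isoforms alone the share was 83.1%, 86.3% and 90.8% in the mutants, against 83.7%, 86.5% and 81.6% in the controls. The groups then overlapped, with a difference of 2.84 points (exact permutation test, p = 0.5).

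The same share was compared for the 8 of the 10 genes that averaged at least 5 TPM and have a retained-intron isoform, and it did not move one way. Phf19, below that level, had 17.4%, 11.9% and 17.1% in the mutants, against 14.2%, 19.7% and 23.1% in the controls, and the groups overlapped. Among the 8 it was higher without overlap for 2, Eed and Phf1, and lower without overlap for 1, Suz12, beside 5.17% higher and 7.22% lower of 6093 genes. Suz12 had 28.4%, 26.7% and 23.4% of its TPM on retained-intron isoforms in the mutants, against 38.4%, 30.7% and 34.9% in the controls. The groups did not overlap, and the mean difference was −8.53 points (exact permutation test, p = 0.1). Phf1 had 18.7%, 29.0% and 21.5% in the mutants, against 18.2%, 17.6% and 16.3% in the controls. That difference of 5.72 points (exact permutation test, p = 0.1) was 2.75 points without mutant replicate 2. The others, Ezh2, Jarid2, Mtf2, Aebp2 and Rbbp4, differed by −3.73 to 1.33 points, all with overlap.

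**Figure D5:**
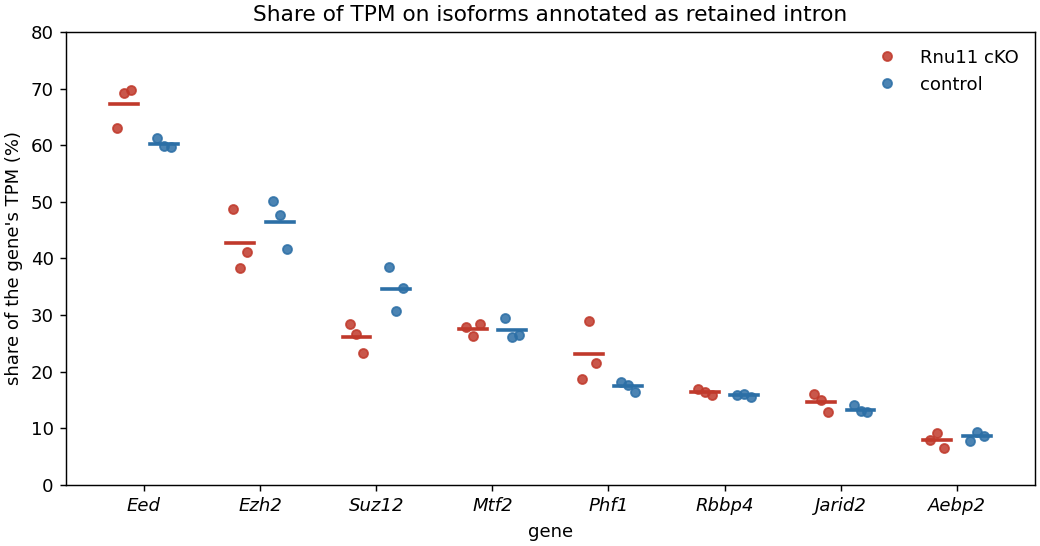
Percent of each gene's TPM on isoforms annotated as retained intron, for the 8 PRC2 genes with such an isoform and a mean of at least 5 TPM, in Rnu11 cKO libraries (red, left) and controls (blue, right) with group means as bars. Eed carries the largest share (67.4% and 60.3%), Suz12 is lower in the mutants (26.1% and 34.7%), and Aebp2 has 7.88% and 8.60%.

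For Suz12 the coding isoform and the retained-intron isoforms parted. Suz12-201, the full-length coding isoform, had 14.1, 14.5 and 13.7 TPM in the mutants, against 14.4, 14.3 and 14.9 TPM in the controls, and differed by −0.04 on the log2 scale. Suz12-203 had 3.90, 3.46 and 2.66 TPM in the mutants, against 6.79, 4.38 and 4.74 TPM in the controls, with no overlap (log2 difference −0.53 ± 0.19, SE; adjusted p = 0.473, limma). Suz12-205 also had no overlap, at 2.50 to 3.36 TPM in the mutants and 3.46 to 4.78 TPM in the controls. Coding isoforms made up 72.2% ± 1.80 of Suz12 TPM in mutants and 64.7% ± 4.06 in controls.

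The lower Ezh2 values came with a short isoform. Ezh2-213, a retained-intron isoform of 3 exons at the 3′ end of the gene, had 9.29, 3.24 and 5.66 TPM in the mutants, against 9.70, 9.40 and 9.67 TPM in the controls. The groups did not overlap, although mutant replicate 1 was close to the controls (log2 difference −0.68 ± 0.30, SE; adjusted p = 0.50, limma). The leading coding isoform Ezh2-202 had 7.30, 7.83 and 8.46 TPM in the mutants, against 9.41, 8.08 and 6.99 TPM in the controls, with overlap. All coding Ezh2 isoforms together averaged 12.7 ± 0.288 TPM in mutants and 13.0 ± 0.884 TPM in controls. For Ezh1, the coding isoform Ezh1-203 averaged 12.4 ± 3.51 TPM in mutants and 8.83 ± 1.94 TPM in controls, and Ezh1-202 averaged 4.92 ± 2.42 TPM in mutants and 7.91 ± 3.33 TPM in controls, both with overlap. Rbbp4-201 averaged 58.7 ± 6.77 TPM in mutants and 52.8 ± 4.49 TPM in controls.

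GENCODE M21 annotates 97 isoforms of the 10 genes, and 58 of them held at least 5% of their gene's TPM in a group. Of 64 isoforms tested 0 were called, beside 0.00867% of all isoforms tested, and 4 had an unadjusted p under 0.05. Eed-202 and Ezh2-215 were higher without overlap, and Suz12-203, Suz12-205 and Ezh2-213 were lower, that is 2 and 3 of 64, beside 10.8% and 5.16% of all isoforms. As a share of the gene's TPM, 0 of 49 isoforms were called (0.0113% of all), 1 was higher without overlap (5.73% of all) and 4 were lower (6.07% of all). Phf1-203 was the higher one, at 13.7% ± 3.10 of Phf1 TPM in mutants and 8.64% ± 2.33 in controls.

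Introns were compared by the ratio of isoforms that splice an intron exactly to isoforms that span it without doing so. The latter include isoforms that splice there with another site or exon, so a ratio need not measure intron retention. The comparison was possible for 72 of 217 introns, 2 of them in Eed and 0 in Phf19, and 0 were called (0.0157% of all 44607 introns tested). The spliced side was higher without overlap for 6 (5.55% of all) and lower for 2 (6.02% of all), and 1 had an unadjusted p under 0.05. Introns with the same isoforms on both sides share 1 ratio, as among the Phf1 introns higher without overlap (log2 difference 0.68). These counts are therefore not of separate comparisons. Both Eed introns were alternative forms of intron 10, so they give a single comparison: Eed-205 joins exon 10 from the earlier splice site, Eed-201 and Eed-204 from the later one. Of the TPM of these isoforms, Eed-205 held 59.2% ± 10.5 in mutants and 40.5% ± 12.4 in controls. The groups overlapped (log2 difference of the later site over the earlier one −1.10 ± 0.47, SE; adjusted p = 0.861, limma). Introns 2, 3 and 8 of Eed could not be tested in this way. When only isoforms that hold the whole intron counted as unspliced, 15 introns in 6 genes could be compared, and 0 were called. The spliced side was then higher without overlap for 3 (7.02% of all so tested) and lower for 1 (5.59%). An unadjusted p under 0.05 was found for 2 of them.

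The Polycomb-like genes included both genes with no overlap. Mtf2, on chromosome 5 from 108065674 to 108109004 (plus strand), had 20.1, 19.5 and 19.6 TPM in the mutants, against 25.5, 20.3 and 24.5 TPM in the controls. Every mutant lay below every control, with control replicate 2 next to the mutants. Mtf2 averaged 19.7 ± 0.350 TPM in mutants and 23.4 ± 2.75 TPM in controls, a log2 difference of −0.23 ± 0.11 (SE; 95% interval −0.48 to 0.02; adjusted p = 0.326, limma). Without control replicate 2 it was −0.33, and without control replicate 1 it was −0.17.

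Phf1, on chromosome 17 from 26933052 to 26937908 (plus strand), had 5.42, 5.14 and 5.34 TPM in the mutants, against 9.38, 5.47 and 8.21 TPM in the controls. The mutants were close together, and control replicate 2 was near them while the other controls stood well above. Phf1 averaged 5.30 ± 0.143 TPM in mutants and 7.69 ± 2.01 TPM in controls. The log2 difference of −0.44 ± 0.18 (SE) had an interval of −0.85 to −0.02 (adjusted p = 0.305, limma). It was −0.63 without control replicate 2 and −0.29 without control replicate 1, and the adjusted p ran from 0.0963 to 0.625 over the alternatives. Phf1 shares exonic bases with Cuta on the other strand, and no source used here says whether the quantification used strand.

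Control replicate 2 also stood apart from the other controls, toward the mutants, in the pachytene, leptotene and zygotene, and Leydig lists. The differentiating spermatogonia list went the other way. The summed pachytene markers, of later meiotic cells, were 50.8 to 67.2 TPM in the mutants, 59.7 TPM in control replicate 2, and 101 and 108 TPM in the other controls. In that list 2 of 8 markers, Pgk2 and Spag6, were under 1 TPM in every library. For leptotene and zygotene markers 0 of 10 were higher in mutants by the mean, and 8 of 10 were lower without overlap; among the controls their sum was 402 TPM in replicate 2 and 481 and 487 TPM in the others. For Sertoli markers 12 of 12 were higher and 6 had no overlap. For Leydig cell markers 7 of 7 were higher, with sums of 246 to 383 TPM in mutants, 235 TPM in control replicate 2, and 124 and 137 TPM in the other controls. Differentiating spermatogonia markers summed to 251 to 284 TPM in mutants and 331 to 349 TPM in controls, with 5 of 6 lower without overlap. Control replicate 2 held the highest of these sums, 349 TPM, and so was the control farthest from the mutants. Undifferentiated spermatogonia markers summed to 40.5 to 43.3 TPM in mutants and 34.0 to 39.0 TPM in controls. Myoid, endothelial and macrophage marker sums overlapped between the groups, and 5 of 6 round spermatid markers were under 1 TPM in every library. The part of these shifts in the values of Phf1, Mtf2, Suz12 and Ezh2 was not tested.

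Phf19, the least abundant, lies on chromosome 2 from 34893757 to 34914026 (minus strand). It had 1.47, 1.82 and 0.949 TPM in the mutants, against 0.971, 1.75 and 0.908 TPM in the controls. The groups overlapped, and the log2 difference of 0.13 had an interval of −0.37 to 0.63 (adjusted p = 0.762, limma). At this level the log2(TPM + 1) scale understates any change.

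The partners of the other form of the complex differed little. Jarid2, which helps recruit PRC2 to chromatin, lies on chromosome 13 from 44729474 to 44921643 (plus strand) and had 23.3, 21.5 and 21.8 TPM in the mutants, against 22.6, 21.2 and 20.8 TPM in the controls. The groups overlapped and both were narrow, with a log2 difference of 0.04 ± 0.08 (SE; interval −0.15 to 0.24; adjusted p = 0.798, limma). Aebp2, a zinc-finger subunit, lies on chromosome 6 from 140622663 to 140678472 (plus strand) and had 16.0, 19.2 and 14.4 TPM in the mutants, against 15.3, 15.9 and 15.8 TPM in the controls. The mutants spread around the controls, which lay close together (log2 difference 0.06, interval −0.21 to 0.34; adjusted p = 0.797, limma). For Jarid2 and Aebp2 the sign turned under the other scalings.

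In order of mean TPM the genes ran Rbbp4, Eed, Ezh2, Ezh1, Suz12, Jarid2, Mtf2, Aebp2, Phf1 and Phf19. Each neighbour pair kept this order in 6 of 6 libraries, apart from 2 pairs. Ezh2 exceeded Ezh1 in 1 mutant and 3 controls, and Jarid2 exceeded Mtf2 in 3 mutants and 1 control. The TPM of the 10 genes summed to 315, 306 and 280.1 in the mutants, against 298, 309 and 309.6 in the controls, with overlap.

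The genes most like Eed over the 6 libraries were sought among 9322 protein-coding genes of at least 5 TPM, by the root mean square difference of log2 values centred on each gene's mean. They were Gnl3 (0.032), Ghitm (0.036), Utp4 (0.039), Tmem179b (0.039) and Wdr75 (0.040). Those most like Ezh2 were Zfp653 (0.042), Dtnbp1 (0.047), Jag2 (0.059), Myrf (0.060) and Rad51ap1 (0.062). The points share library scaling and cell makeup, and the ranking is a description.

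Other genes of the Polycomb pathway were read from 4 lists, and 0 genes of any list were called, beside 0.0278% of all genes tested. By the mean 33.6% of the 17959 genes tested were lower in mutants. Without overlap 14.5% of them were higher and 5.77% lower. Of 10 other PRC2 partners and inhibitors, 7 were higher and 3 lower in mutants by the mean, with a median log2 difference of 0.07 beside 0.09 for all genes. Eloa, an elongin subunit, was the gene of this list with no overlap, at 31.9, 33.9 and 28.1 TPM in the mutants, against 24.7, 27.9 and 25.9 TPM in the controls (log2 difference 0.25, adjusted p = 0.307, limma).

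Of 11 demethylases and methyltransferases that oppose PRC2, 9 were higher and 2 lower, with a median of 0.11 beside 0.09 for all genes. Without overlap 2 were higher and 1 lower, beside 14.5% and 5.77% of all genes tested. Kmt2a, a methyltransferase that keeps Polycomb targets active, had 36.0, 35.8 and 31.1 TPM in the mutants, against 20.8, 28.6 and 27.9 TPM in the controls (log2 difference 0.41, adjusted p = 0.294, limma). Uty, the Y-linked relative of the demethylase gene Kdm6a, was also higher without overlap (21.5, 23.5 and 20.1 TPM in mutants, 15.4, 19.6 and 15.2 TPM in controls). Nsd2, which methylates lysine 36 of histone H3, was lower without overlap (36.0, 34.6 and 36.0 TPM in mutants, 47.6, 42.7 and 38.0 TPM in controls; log2 difference −0.25, adjusted p = 0.306, limma).

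Of 16 genes of PRC1, the complex that reads the PRC2 mark, and its regulators, 10 were higher and 6 lower, with a median of 0.02. Phc3, a Polyhomeotic subunit, was higher without overlap, at 25.9 to 30.1 TPM in mutants and 21.9 to 25.0 TPM in controls. Scml2, a germline PRC1 partner, was lower at 41.9 to 47.5 TPM in mutants and 48.7 to 51.7 TPM in controls. Bmi1, a PRC1 subunit, was lower at 26.1 to 28.9 TPM in mutants and 29.3 to 31.3 TPM in controls. Their log2 differences were 0.27, −0.17 and −0.14, with adjusted p of 0.296, 0.346 and 0.405 (limma).

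Genes classically held silent by PRC2 were mostly at very low levels in both groups. Of 50 such genes, 38 were under 1 TPM in every library and 1 of these was listed at 0 in all. Of the 12 tested, 9 were higher and 3 lower in mutants by the mean, with a median of 0.12 beside 0.09 for all genes. Of all genes tested, 33.6% were lower. Without overlap 2 of the 12 were higher, beside 14.5% of all genes tested. Gata6, a transcription factor gene that Sertoli and Leydig cells also express, had 14.8, 17.2 and 14.3 TPM in the mutants, against 12.6, 12.6 and 10.7 TPM in the controls, with no overlap (log2 difference 0.34, adjusted p = 0.294, limma). Hoxc4 was the other gene with no overlap, at 1.02 to 1.11 TPM in mutants and 0.852 to 1.01 TPM in controls (log2 difference 0.08, adjusted p = 0.776, limma). The Sertoli and Leydig marker sums given above were higher in the same mutants, and their part in these levels was not tested.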

How the data were processed

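Whole testes of 3 Rnu11 cKO and 3 control mice were profiled as stranded total RNA depleted of ribosomal RNA, per the labels' protocols. Per the submitters' processing notes, HISAT2 and the GRCm38 build were used; no source used here names the quantification tool or its annotation. For each library the authors deposited TPM of genes and of isoforms but no counts, so the depth is unknown. Per the file headers, the authors also deposited tables of group averages and log2 fold changes, whose values are not printed. Short RNAs take much of the TPM, so a change in them rescales other genes.

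Genes of at least 1 TPM on average, and isoforms of at least 0.5 TPM, entered limma fits (version 3.58.1, R 4.3.3; lmFit, then eBayes with trend) on log2(TPM + 1). Tests were two-sided, and p-values were adjusted over all features tested by the Benjamini-Hochberg method with a threshold of 0.05. The share of an isoform was tested as the log2 ratio of its TPM to that of the other isoforms of its gene, each plus 0.1. This was done where the gene averaged 5 TPM or more and the isoform held 5% to 95% of it. Intron ratios used the same 0.1, with both sums averaging at least 0.5 TPM. Shares and ratios were fitted without trend. Bases within introns came from GENCODE M21 transcripts that extend into them. Scripts were tested on simulated data; tables were made with pandas 2.3.3 under Python 3.11.15 and figures with matplotlib 3.10.9.

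The 10 genes and the pathway and marker lists were chosen with earlier results of these data known. Named were all 10 genes, the 2 most abundant isoforms of those described, Eed isoforms of at least 0.1 TPM, list genes with no overlap between groups, the 5 genes most like Eed and Ezh2, and Rnu11. Other isoforms were named after their values were seen. Each library was taken as 1 animal, since the series' design text speaks of animals. Alternatives were another pseudocount, filter and scaling, no trend, a replicate block and each library left out.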

Additional observations from a re-analysis of the deposited data

How the results depend on the processing

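In all alternatives run, 0 of the 10 genes and 0 of their isoforms, shares and introns were called. Of 545 alternatives over 46 results, 515 were scored as the same, 27 reversed a sign in 11 results, and 3 moved a count. The same meant an unchanged direction and side of the threshold or, for a count, no more than a small change. No main result was under the threshold, and the exact tests could not reach it. Apart from counts, the score therefore rested mostly on the sign, and it does not show that the size of a difference held. The count of genes lower without overlap went from 2 to 3 under either scaling, and this was scored as the same. With median-ratio scaling the log2 differences were −0.040 for Aebp2, −0.041 for Eed, −0.059 for Jarid2 and −0.0069 for Rbbp4. With protein-coding scaling they were −0.070, −0.072, −0.090 and −0.038 for the same genes. With a pseudocount of 0.1 Eed-204 was at 0.0088. Over single libraries left out, Aebp2 ran from −0.045 to 0.15, Ezh1 from −0.087 to 0.11, Aebp2-201 from −0.12 to 0.14, Jarid2-201 from −0.21 to 0.15, Ezh2-202 from −0.14 to 0.056, Eed-204 from −0.22 to 0.13, Eed-206 from −0.10 to 0.055 and Eed-207 from −0.24 to 0.18. The count of genes lower without overlap ran from 2 to 4 (4 without mutant replicate 1), and the count higher from 0 to 1 (1 without mutant replicate 3 or control replicate 1). Leaving out a library can only make overlap rarer, for any gene. The share over all genes was not counted with a library left out, so these counts cannot be read as particular to the 10 genes. The cause of these changes was not tested.

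Deviations of same-numbered mutant and control libraries correlated at −0.069, 0.035 and 0.077 across 17959 genes, beside −0.162 to 0.122 for differently numbered ones. Whether the replicate numbers pair the libraries is not known. With a replicate block 0 of the 10 genes were called. The Ezh1 to Ezh2 difference stayed at 0.21 (exact permutation test within pairs, p = 0.5) and the Eed retained-intron share at 7.07 points (p = 0.25). TPM without counts gives no depth, so low isoforms such as Eed-201 have no known counting error. The retained-intron share was an analysis added after the data were seen, and without single libraries the Eed difference ran from 5.89 to 9.20 points.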
